A study of Mus musculus with 24 samples.

Results

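The lipid droplet coat genes described here are Plin2, Plin3, Plin4 and Plin5 of the perilipin family, Cidea, Cideb and Cidec, Fitm1 and Fitm2, and G0s2. They were chosen by name, as all probe sets annotated to these genes on the array, with earlier results of these data known. They make up 10 of 18193 genes and 11 of 45037 probe sets. Plin5 has 2 probe sets, each other gene has 1, and none of the 11 is annotated to several genes. The series measured RNA in livers and hearts of Ppara knockout (KO) and wild-type (WT) SV129 mice, to compare the loss of PPARα between sexes and between these tissues. The 8 groups were KO female, WT female, KO male and WT male livers, and KO female, WT female, KO male and WT male hearts. All mice were 10 to 12 weeks old, were killed at zeitgeber time 14 and had no treatment named in the labels. Each array held RNA pooled from 4 animals, with 3 pools in each group and 24 arrays in all. In each tissue, pools 10 to 12 were KO females, 7 to 9 WT females, 4 to 6 KO males and 1 to 3 WT males.

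Cells store triglyceride in lipid droplets, which bud from the endoplasmic reticulum and are bounded by a phospholipid monolayer. Perilipins coat this surface and limit the access of lipases, CIDE proteins transfer lipid between touching droplets so that they fuse, and FIT proteins act in the endoplasmic reticulum where droplets form. G0s2 inhibits adipose triglyceride lipase (encoded by Pnpla2), the enzyme that starts triglyceride breakdown. PPARα is a nuclear receptor activated by fatty acids, which binds DNA with RXR at direct repeats of a half-site, and it is known for raising genes of fatty acid oxidation in liver and heart.

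Values are log2 intensities, in which a difference of 1 stands for a 2-fold change, and ± gives the SD over 3 pools. A gene passed the test at a Benjamini-Hochberg adjusted p under 0.05 in limma over all 18193 genes. Differences are KO minus WT unless another order is named. Over all probe sets, liver arrays had medians of 2.43 to 2.49 and heart arrays of 3.01 to 3.07. The tissues appear to have been normalized apart, so levels were not set against each other across tissues.

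The label check used Ppara. Its log2 intensity was 7.39, 7.28 and 7.60 in KO female livers and 8.69, 8.24 and 8.48 in WT female livers. It was 7.50, 7.34 and 7.27 in KO male livers and 8.67, 8.31 and 8.48 in WT male livers. In hearts it was 5.74, 5.28 and 5.66 in KO females and 7.06, 7.27 and 6.94 in WT females, and 6.13, 5.38 and 5.45 in KO males and 7.07, 6.92 and 6.73 in WT males. KO pools lay below WT pools in each of these comparisons, and whether the probes lie in the deleted part of the gene is not known here. The summed level of hepatocyte markers was 15.8 to 16.1 in livers and 6.48 to 8.59 in hearts, and that of cardiomyocyte markers was 16.0 to 16.1 in hearts and 5.60 to 5.87 in livers. There were 2 heart pools that stood apart. KO male pool 4 had Xist, the transcript of the inactive X, at 6.62, where male hearts otherwise reached 3.12, and a median skeletal muscle marker level of 5.17. KO female pool 10 had Alb, the hepatocyte product albumin, at 7.94, where no other heart pool exceeded 5.02. Among 75 marker genes of 8 cell types, 0 passed in KO against WT liver by limma, where 5 in females and 4 in males had an unadjusted p under 0.05. In hearts, averaged over the sexes, 5 of the 75 passed by limma, where 0.885% of all genes did, and 18 had an unadjusted p under 0.05. Of the 5, Fabp4, Mybpc2, Myl1 and Cd163 rose by 0.40, 0.52, 0.43 and 0.36, and Acta1 fell by 0.90. Fabp4 was listed as an adipocyte marker, Cd163 as a macrophage marker and the others as skeletal muscle markers. The Myl1 rise was mostly male, with means of 6.88 in KO and 6.09 in WT male hearts, and 5.95 and 5.86 in female hearts. The KO male group includes pool 4. Single-sex tests by limma passed 3 in female and 1 in male hearts, with 16 at an unadjusted p under 0.05 in each. In female hearts alone Myl7, an atrial myosin light chain, fell by 0.65 (adjusted p = 0.0126 by limma). Their part in the results below was not tested.

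Sequences are shown for Plin5, Fitm2 and G0s2, which passed in liver, and for Plin2, which held a match to the repeat. Each stretch lies upstream of the annotated RefSeq span of its gene (build GRCm38.p6, all on the minus strand). They are Plin5 at chr17:56117607-56117798, Fitm2 at chr2:163472630-163472879, G0s2 at chr1:193273189-193273438 and Plin2 at chr4:86670218-86670309. Bases within the gene's own annotated span were left out, and the Fitm2 stretch overlaps the annotated 2310001K24Rik. Capitals mark matches to the motifs searched on both strands, which were the nuclear receptor half-site (AGGTCA), a direct repeat of this half-site with 1 base between the copies and up to 2 mismatches, the TATA box (TATAAA), the E-box (CACGTG) and the CCAAT box.
Plin5: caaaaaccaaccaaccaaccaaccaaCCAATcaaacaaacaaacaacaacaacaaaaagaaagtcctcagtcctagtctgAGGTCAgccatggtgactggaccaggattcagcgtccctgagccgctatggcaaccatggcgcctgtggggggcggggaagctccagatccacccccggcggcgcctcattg
Fitm2: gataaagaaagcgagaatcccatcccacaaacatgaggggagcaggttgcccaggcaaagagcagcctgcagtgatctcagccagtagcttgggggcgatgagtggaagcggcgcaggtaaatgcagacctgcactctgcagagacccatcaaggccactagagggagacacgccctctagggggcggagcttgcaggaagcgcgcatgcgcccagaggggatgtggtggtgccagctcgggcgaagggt
G0s2: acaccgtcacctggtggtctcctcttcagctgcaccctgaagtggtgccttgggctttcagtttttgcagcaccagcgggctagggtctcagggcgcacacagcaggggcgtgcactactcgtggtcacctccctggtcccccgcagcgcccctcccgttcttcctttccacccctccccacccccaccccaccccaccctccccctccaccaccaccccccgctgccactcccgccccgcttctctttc
Plin2: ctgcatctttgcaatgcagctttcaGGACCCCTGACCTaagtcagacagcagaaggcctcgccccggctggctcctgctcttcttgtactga

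The search covered the 250 bases before each start in the 9 coat genes other than Cidea, whose sequence is not shown here though it passed in heart, and 9 of 9 had such a stretch. For Plin5 and Plin2 the start used in the search lies inside the annotated span, so their printed stretches end before it. Positions below are counted back from the start used in the search, not from the last base printed. Plin5 held the half-site from 170 to 165 bases before its start and CCAAT matches from 224 to 220 and, on the other strand, from 62 to 58, the last of which runs past the bases printed. Plin2 held a match to the direct repeat from 225 to 213 bases before its start, written GGACCCCTGACCT on the strand shown, with a half-site at its end, and a CCAAT match from 73 to 69, outside the bases printed. Fitm2 and G0s2 held none of the motifs. Of 32851 stretches of this length over all genes, 14% held the half-site, 3.24% the direct repeat with up to 2 mismatches, 33.8% CCAAT, 12.4% TATAAA and 6.02% CACGTG. A match describes letters only and is not a site shown to be bound.

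Among the coat genes Plin5 had the widest change with loss of PPARα, and in hearts it had both the largest difference and the smallest p of all 18193 genes, in females and in males. Plin5 encodes the perilipin of oxidative tissues, which binds adipose triglyceride lipase and its coactivator and brings droplets to mitochondria. Its log2 intensity was 4.51, 4.44 and 4.24 in KO female hearts and 7.53, 7.45 and 7.33 in WT female hearts. In males it was 4.67, 4.32 and 4.42 in KO hearts and 7.48, 7.66 and 7.53 in WT hearts. No KO pool came within 2 log2 units of any WT pool of its sex. The means were 4.39 ± 0.14 in KO female and 7.44 ± 0.10 in WT female hearts, a difference of -3.04 (SE 0.11, 95% CI -3.27 to -2.82, 8.24-fold lower, adjusted p = 2.93e-10 by limma). In males the means were 4.47 ± 0.18 in KO and 7.55 ± 0.09 in WT hearts, a difference of -3.09 (SE 0.11, 95% CI -3.31 to -2.86, 8.50-fold lower, adjusted p = 2.36e-10 by limma). In bulk tissue, fewer cells of a type and less RNA per cell cannot be told apart. Without heart pools 4 and 10 the differences were -3.10 in females and -3.19 in males.

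**Figure D1:**
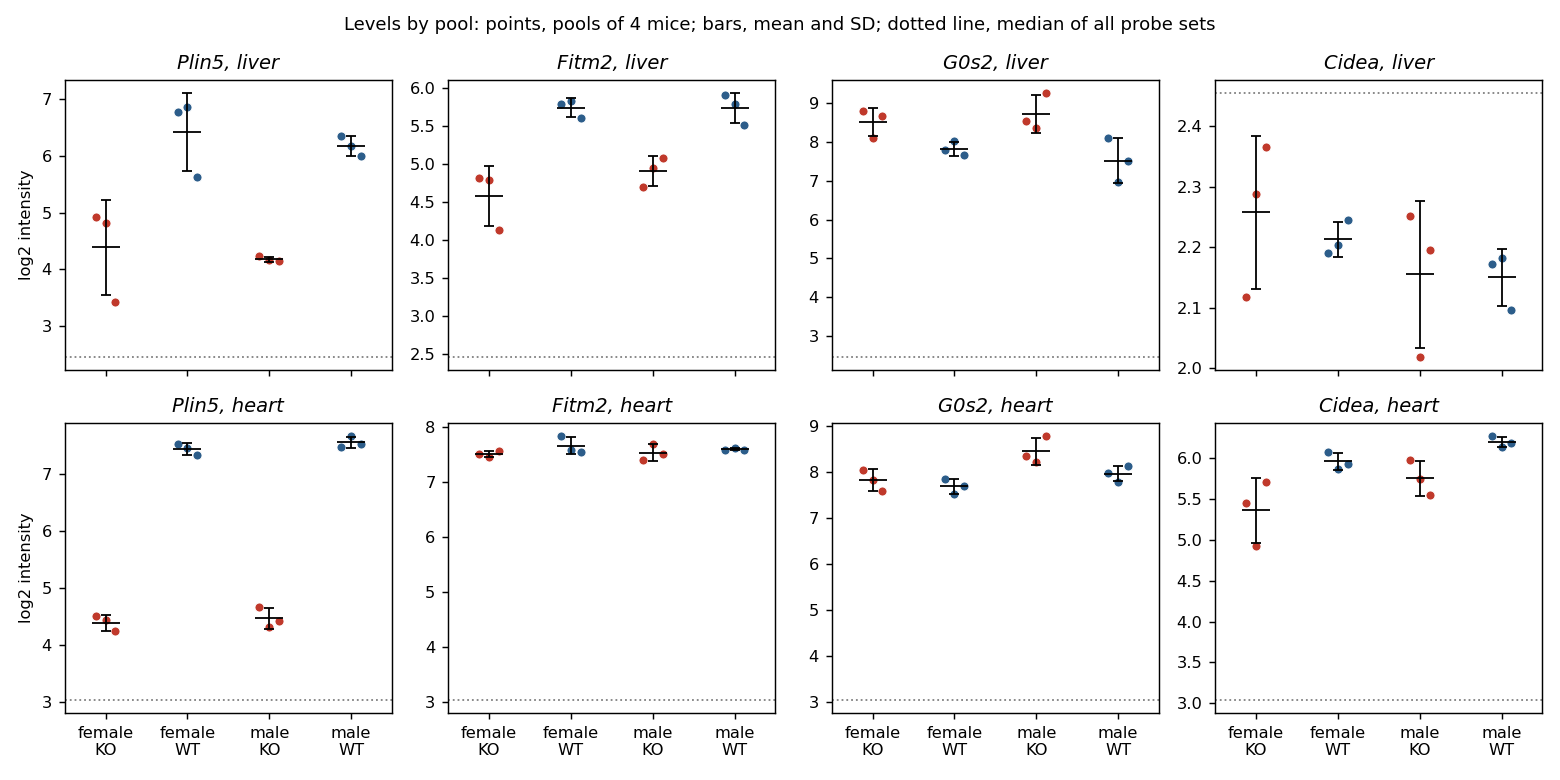
Log2 intensity (vertical axis) of Plin5, Fitm2, G0s2 and Cidea in every liver and heart pool, with KO left of WT for each sex; points are pools, bars the mean and SD of 3 pools, and the dotted line the median of all probe sets of that tissue. Plin5 lay 3.04 lower in KO female and 3.09 lower in KO male hearts, and Cidea lay under the median in all livers.

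Liver Plin5 was lower in KO pools too, with more spread in females. The pools had 4.93, 4.81 and 3.42 in KO female livers and 6.78, 6.86 and 5.63 in WT female livers. They had 4.23, 4.16 and 4.15 in KO male livers and 6.36, 6.18 and 6.01 in WT male livers. KO and WT did not overlap in either sex, and in females the lowest KO pool (12) and the lowest WT pool (9) stood well below the others of their groups. The difference was -2.04 in females (SE 0.36, 95% CI -2.82 to -1.26, 4.10-fold lower, adjusted p = 0.0166 by limma) and -2.00 in males (SE 0.36, 95% CI -2.78 to -1.22, 4.00-fold lower, adjusted p = 0.0215 by limma). By size it ranked 10 of 18193 genes in females and 8 in males, and by p it ranked 91 and 83. Averaged over the sexes the fall was -2.02 (SE 0.25, adjusted p = 0.000715 by limma). The single-sex calls depended on single pools and on the model. In females the difference was -1.86 without WT pool 7 and -1.82 without WT pool 8, with adjusted p of 0.0929 and 0.0921 by limma, and with only the compared arrays in the fit the adjusted p was 0.279 by limma. Leaving out any of pools 1 to 6 gave adjusted p of 0.0789 to 0.124 in males, with differences of -2.09 to -1.91, and a trended robust variance gave 0.0592. Without liver pool 12, which deviated most from its group over all genes, the female difference was -1.55 (adjusted p = 0.0106 by limma).

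A second Plin5 probe set, whose _s_at suffix marks possible binding of related transcripts, went the same way. Its values were 3.29, 3.38 and 3.47 in KO female hearts and 6.62, 6.55 and 6.47 in WT female hearts. In males they were 4.03, 3.72 and 3.49 in KO hearts and 6.88, 6.82 and 6.79 in WT hearts. KO and WT hearts were again far apart. In the fit of all 45037 probe sets its differences were -3.17 in female and -3.08 in male hearts, and -2.27 in female and -2.68 in male livers, with adjusted p of 3.39e-10, 5.09e-10, 0.0277 and 0.0121 by limma. The share of probe sets that passed was 0.311% and 0.275% in female and male hearts, and 0.48% and 0.344% in female and male livers. Across the 12 arrays of a tissue both Plin5 probe sets had a Pearson r of 0.989 in liver and 0.994 in heart, over arrays that share the genotype split. The probe sets read the same RNA and are not replicates.

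The fall of Plin5 did not differ detectably between the sexes. The female minus male KO effect was -0.04 in liver and 0.04 in heart, with adjusted p of 0.998 and 0.993 by limma. The liver minus heart KO effect was 1.00 (SE 0.39) in females and 1.09 (SE 0.39) in males, with adjusted p of 0.476 and 0.429 by limma, so the larger fall in hearts did not pass as a difference between tissues. Without liver pool 12 the female value was 1.49 with adjusted p = 0.00709 by limma. The female effect also passed with array weights, so in 2 of 35 alternatives. The male effect passed in 1 of 35, with only the compared arrays in the fit (adjusted p = 0.00208 by limma).

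Genes whose pattern over the 12 arrays of a tissue was most like that of Plin5 were ranked by Pearson r, as a description of arrays that share the genotype split. In hearts these were Cpt2 (r 0.995), a mitochondrial carnitine transferase, Ech1 (0.993) and Decr1 (0.992), auxiliary enzymes for unsaturated fatty acids, Tesc (0.992) and Etfdh (0.991), which passes electrons to ubiquinone. In livers these were Zfand6 (0.964), Etfb (0.963), Pxmp4 (0.960), Decr2 (0.953) and Hsd17b11 (0.952). Hsd17b11 is itself a droplet protein.

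Plin2, the coat protein of droplets in most cells, showed small differences that did not pass. Its values were 8.74, 8.73 and 9.01 in KO female livers and 9.21, 9.09 and 8.99 in WT female livers, and 8.79, 8.55 and 8.54 in KO male livers and 8.80, 8.76 and 8.82 in WT male livers. The female groups overlapped through KO pool 12, and the male groups through KO pool 4. The liver difference was -0.27 in females (95% CI -0.49 to -0.05, adjusted p = 0.491 by limma) and -0.17 in males (95% CI -0.39 to 0.05, adjusted p = 0.675 by limma). In hearts Plin2 was 7.59, 7.50 and 7.54 in KO females and 7.76, 7.75 and 7.68 in WT females, which did not overlap, and 7.59, 7.42 and 7.61 in KO males and 7.71, 7.39 and 7.69 in WT males, which did. The heart differences were -0.19 and -0.05, with adjusted p of 0.759 and 0.972 by limma.

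Plin4 is the nearest coat gene to Plin5, on chromosome 17 with no annotated gene between them in RefSeq, and Plin3 lies farther along it. Plin4 encodes a perilipin abundant in adipocytes and muscle. Its heart values were 8.03, 8.08 and 7.74 in KO females, 8.23, 8.25 and 8.08 in WT females, 8.10, 8.24 and 7.77 in KO males and 8.03, 8.07 and 8.02 in WT males. KO and WT hearts overlapped in both sexes, and the differences were -0.23 (95% CI -0.49 to 0.02) in females and close to 0 (95% CI -0.25 to 0.25) in males. In livers Plin4 lay between 2.44 and 2.91, near the array median, where a change could go unseen. Plin3, which moves from the cytosol to forming droplets, lay between 4.52 and 5.34 in livers and between 8.29 and 8.65 in hearts. Its KO minus WT differences were between -0.02 and 0.09 in both tissues and sexes, and none passed.

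Fitm2, a protein of the endoplasmic reticulum needed for normal droplet formation, fell in KO female livers. It had 4.82, 4.78 and 4.12 in KO female livers and 5.78, 5.82 and 5.60 in WT female livers. In males it had 4.69, 4.94 and 5.08 in KO livers and 5.90, 5.79 and 5.51 in WT livers. KO pools lay below WT pools in both sexes, with the lowest value in KO female pool 12. The means were 4.57 ± 0.39 in KO and 5.73 ± 0.12 in WT female livers, a difference of -1.16 (SE 0.17, 2.24-fold lower, adjusted p = 0.00396 by limma). In males they were 4.90 ± 0.20 in KO and 5.73 ± 0.20 in WT livers, a difference of -0.83 (SE 0.17, 95% CI -1.20 to -0.46) that missed the threshold with adjusted p = 0.0558 by limma. Averaged over the sexes the fall was -0.99 (SE 0.12, 1.99-fold lower, adjusted p = 0.000544 by limma), and the sexes did not differ detectably (-0.33, adjusted p = 0.994 by limma). Without liver pool 12 the differences were -0.93 in females and -0.83 in males, with adjusted p of 0.00269 and 0.00357 by limma, and without pool 10 the male adjusted p was 0.0384 by limma. With only the compared arrays in the fit, the female call was lost (adjusted p = 0.0803 by limma) and the male difference passed (adjusted p = 0.0136 by limma).

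Heart Fitm2 had 7.50, 7.46 and 7.56 in KO females and 7.84, 7.59 and 7.56 in WT females, and 7.40, 7.70 and 7.51 in KO males and 7.59, 7.61 and 7.59 in WT males. KO and WT hearts overlapped in both sexes. The differences were -0.15 (95% CI -0.36 to 0.05) and -0.07 (95% CI -0.27 to 0.14), with adjusted p of 0.841 and 0.965 by limma. The liver minus heart KO effect of Fitm2 was -1.01 in females (SE 0.20, adjusted p = 0.0121 by limma), where 0.698% of all genes passed, and -0.76 in males (SE 0.20, adjusted p = 0.136 by limma), where 0.517% passed. The female call was lost with only the compared arrays in the fit (adjusted p = 0.0784 by limma), and the male effect passed without liver pool 12 (adjusted p = 0.0141 by limma). Fitm1, the muscle member of the FIT pair, had 4.16 to 4.85 in livers and 8.01 to 8.40 in hearts, with KO minus WT differences of -0.16 in female and -0.25 in male livers and 0.04 in female and 0.08 in male hearts. None of these passed.

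**Figure D2:**
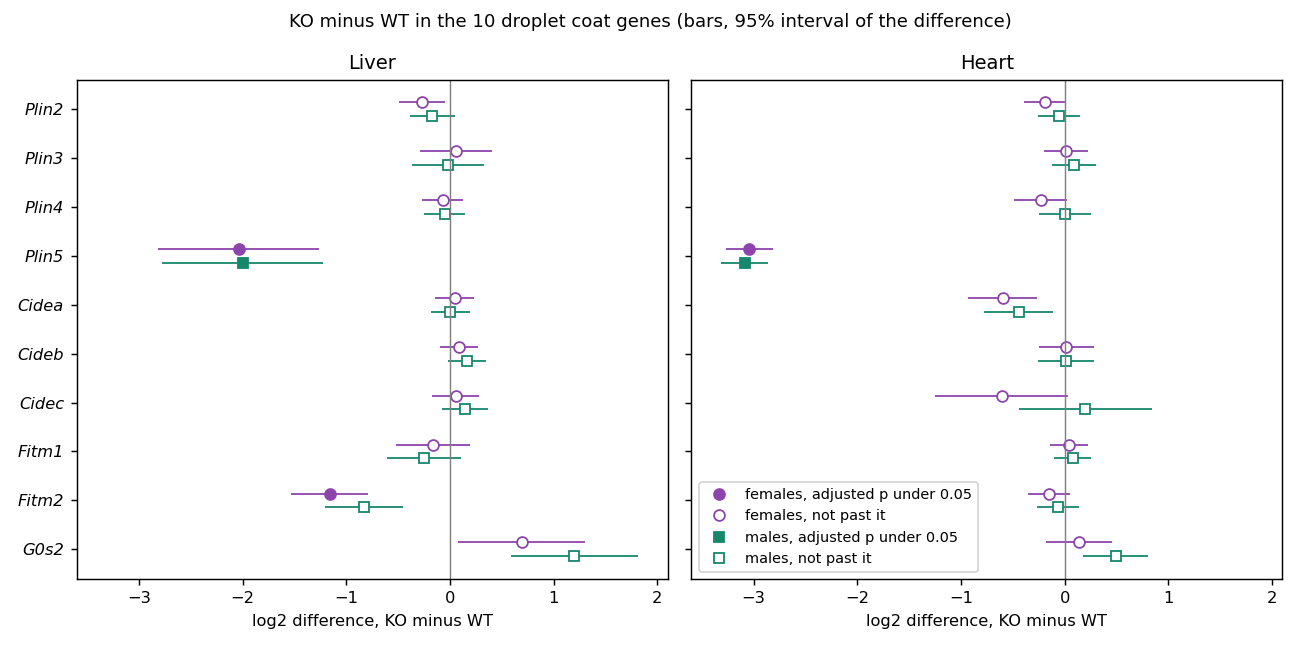
KO minus WT log2 difference (horizontal axis) of each droplet coat gene in females and males, liver and heart, with 95% confidence intervals; filled points passed at an adjusted p under 0.05. Plin5 passed in all 4 comparisons and Fitm2 in female liver, at -1.16.

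G0s2 was the coat-associated gene that passed as higher in KO livers, on the average over the sexes. Its values were 8.80, 8.10 and 8.66 in KO female livers and 7.80, 8.02 and 7.66 in WT female livers, and 8.54, 8.37 and 9.27 in KO male livers and 8.11, 6.96 and 7.50 in WT male livers. KO pools lay above WT pools in both sexes. The difference was 0.69 in females (95% CI 0.08 to 1.30, adjusted p = 0.588 by limma) and 1.20 in males (95% CI 0.59 to 1.81, adjusted p = 0.119 by limma). G0s2 passed on the average over the sexes, at 0.95 (SE 0.20, 1.93-fold higher, adjusted p = 0.0355 by limma), where 1.36% of all genes passed. That call was lost, with adjusted p of 0.0502 to 0.0942 by limma, without pool 10 or 12 (KO females), 7, 8 or 9 (WT females), 4 or 6 (KO males), or 2 or 3 (WT males), with differences of 0.80 to 0.99. It was also lost with a trended robust variance (adjusted p = 0.112 by limma). In males alone G0s2 passed without WT pool 1 (1.49, adjusted p = 0.0461 by limma).

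In hearts G0s2 had 8.05, 7.84 and 7.59 in KO females and 7.85, 7.52 and 7.69 in WT females, and 8.35, 8.23 and 8.78 in KO males and 7.98, 7.79 and 8.12 in WT males. The female groups overlapped and the male groups did not. The differences were 0.14 in females and 0.49 in males, with adjusted p of 0.942 and 0.371 by limma. KO female hearts lay below KO male hearts in all pools, a female minus male difference of -0.63 (95% CI -0.94 to -0.31) that did not pass, with adjusted p = 0.448 by limma.

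Cidea, the CIDE protein of brown fat that promotes droplet fusion, was lower in KO hearts. It had 5.45, 4.93 and 5.71 in KO female hearts and 6.08, 5.88 and 5.94 in WT female hearts, and 5.98, 5.74 and 5.55 in KO male hearts and 6.27, 6.14 and 6.19 in WT male hearts. KO and WT did not overlap in either sex. The difference was -0.60 in females (95% CI -0.93 to -0.27, adjusted p = 0.187 by limma) and -0.44 in males (95% CI -0.78 to -0.11, adjusted p = 0.529 by limma). Cidea passed on the average over the sexes, at -0.52 (SE 0.11, 1.43-fold lower, adjusted p = 0.0364 by limma), where 0.885% of all genes passed. Without heart pools 4 and 10 it was -0.60 with adjusted p = 0.0512 by limma. The call was also lost without pool 10 alone (KO females), 7, 8 or 9 (WT females), 5 or 6 (KO males), or 1, 2 or 3 (WT males), with differences of -0.54 to -0.47 and adjusted p of 0.0651 to 0.115 by limma. In females alone Cidea passed without KO pool 12 (-0.77, adjusted p = 0.0355 by limma). In livers Cidea lay between 2.02 and 2.36, below the array median, so liver gives no reading of it.

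Cidec, the CIDE protein of white adipocytes, varied between heart pools within groups. It had 3.41, 2.94 and 3.27 in KO female hearts and 3.67, 3.47 and 4.30 in WT female hearts, and 4.40, 2.84 and 3.58 in KO male hearts and 3.03, 3.63 and 3.55 in WT male hearts. The female groups did not overlap and the male groups did. The differences were -0.61 (95% CI -1.25 to 0.03) and 0.20 (95% CI -0.44 to 0.84), with adjusted p of 0.756 and 0.965 by limma. Pools 1, 5 and 11 lay near or below the heart array medians of 3.01 to 3.07, so low heart values of Cidec are read with the same limit as in liver. In livers Cidec lay between 2.20 and 2.59, near the median. Cideb, the hepatocyte CIDE protein that also acts in lipoprotein lipidation, lay between 8.85 and 9.17 in livers and between 3.31 and 3.98 in hearts. Its liver differences were 0.09 in females (95% CI -0.10 to 0.27) and 0.16 in males (95% CI -0.02 to 0.34), and neither passed. In males the KO pools (9.16, 9.16 and 9.06) lay above the WT pools (9.01, 8.98 and 8.91), and in females the groups overlapped.

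One adipocyte marker, Adipoq, was high and low in the same heart pools as Cidec at both ends. Adipoq, the adipocyte hormone adiponectin, was highest in KO male pool 4 (8.24) and WT female pool 9 (7.99), the pools with the highest Cidec (4.40 and 4.30). Adipoq was lowest in KO female pool 11 (4.55) and KO male pool 5 (5.28), the pools with the lowest Cidec (2.94 and 2.84). Pool 11 was also lowest in Cidea, but WT male pools 1 to 3 had the highest Cidea with Adipoq of 6.06, 6.31 and 7.59. The summed level of 7 of 9 adipocyte markers measured was 11.12 to 11.29 in KO female and 10.74 to 11.03 in WT female hearts, and 11.005 to 11.49 in KO male and 10.87 to 11.01 in WT male hearts. This sum is mostly Fabp4, with means of 11.13 in KO female, 10.65 in WT female, 11.10 in KO male and 10.79 in WT male hearts. Across genotypes it did not follow Cidec, since KO female pool 11, low in Cidec, had 11.12 and WT female pool 9, high in Cidec, had 11.03. Within KO males and within KO females the pools had the same order in the sum and in Cidec. Within WT males and within WT females they did not. KO male pool 4 was the highest heart pool in both. Being mostly 1 gene, the sum gives little reading of the other adipocyte markers. Of the 7, 1 passed in hearts, Fabp4 with 0.48 in females and 0.40 averaged over the sexes. In livers the summed level was 5.35 to 5.44 in KO females and 5.17 to 5.29 in WT females, and 5.27 to 5.37 in KO males and 5.17 to 5.25 in WT males. KO livers lay above WT livers in both sexes on this sum, and Adipoq lay below the array median. The median of the 7 markers was 2.32 to 2.63 in liver pools, near the liver array medians of 2.43 to 2.49. By limma 0 of 7 passed in liver in either sex, with 0 in females and 1 in males at an unadjusted p under 0.05. At these levels the liver sum gives no reading of adipocyte RNA. The part of adipocyte RNA in the Cidea and Cidec values was not tested.

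**Figure D3:**
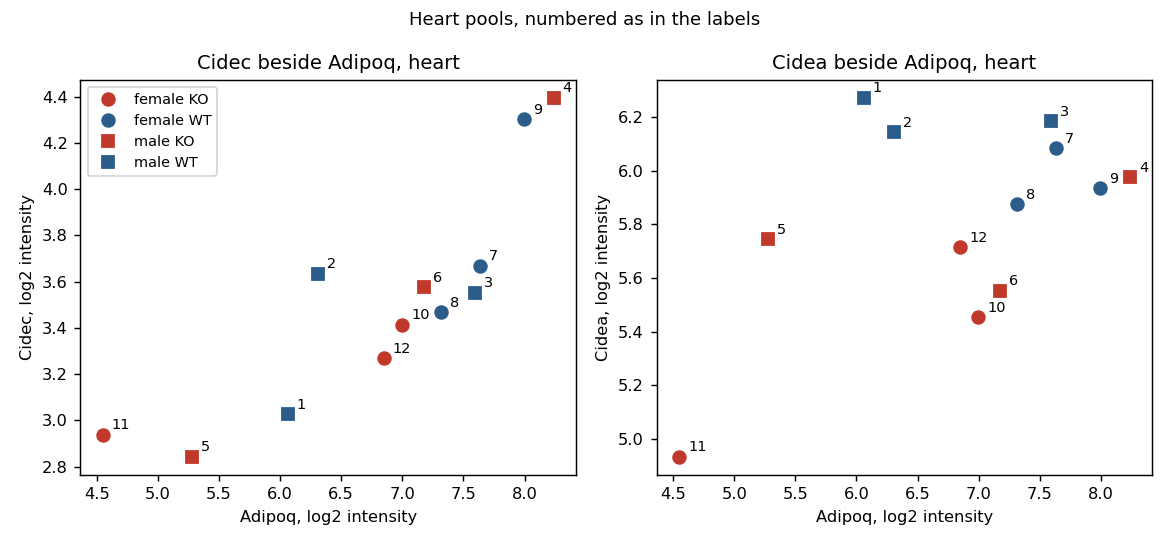
Log2 intensity of Cidec and of Cidea (vertical axes) against that of Adipoq (horizontal axis) in the 12 heart pools, with KO and WT and both sexes marked. Pools 4 and 9 are highest and pools 5 and 11 lowest in both Adipoq and Cidec. WT male pools 1, 2 and 3 are highest in Cidea and rank 10, 9 and 4 of 12 in Adipoq, counted from the highest.

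Counted together, the droplet coat genes that passed in KO against WT were 2 of 10 in female liver, where 0.813% of all genes passed, and 1 in male liver, where 0.605% did. In heart 1 of 10 passed in females, against 0.533% of all genes, and 1 in males, against 0.401%. All of these were lower in KO, as were 0.451% and 0.434% of all genes in female and male liver and 0.412% and 0.319% in female and male heart. Averaged over the sexes, 2 were lower and 1 higher in liver, where 0.808% of all genes were lower and 0.555% higher, and 2 were lower in heart, where 0.594% were. Because the genes were chosen with earlier results of these data known, these counts describe them and do not test them as a set. The median difference of the 10 genes was -0.01 in female and -0.03 in male liver and -0.17 in female and 0.01 in male heart, beside -0.00154, 0.0109, -0.0053 and 0.0038 in the same order over all genes. KO and WT pools did not overlap for 3 genes in female and 4 in male liver and for 4 in female and 3 in male heart, where 10.4%, 16.7%, 12.1% and 11.4% of all genes did not. Within a tissue the female and male comparisons share no arrays, but they share 1 estimate of the spread from all 12 arrays of the fit. Whether the liver and heart pools share mice is not stated.

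No coat gene passed between the sexes. The female against male comparison by limma gave 0 of 10 in KO livers, WT livers, KO hearts and WT hearts, with 1, 2, 2 and 0 at an unadjusted p under 0.05, where 1.93%, 1.76%, 0.011% and 0.0275% of all genes passed. The sex-by-genotype contrast by limma gave 0 of 10 in liver and in heart, with 0 at an unadjusted p under 0.05 in both, where 0.066% and 0% of all genes passed. The highest female minus male difference in WT livers was that of G0s2 at 0.30, and that of Plin2 was also 0.30, with Plin2 pools of 9.21, 9.09 and 8.99 in WT females and 8.80, 8.76 and 8.82 in WT males. Female and male pools did not overlap for 1 coat gene in KO livers (Plin4), 2 in WT livers (Plin2 and Cidea), 1 in KO hearts (G0s2) and 2 in WT hearts (Plin4 and Cidea), where 14.7%, 20.6%, 11.5% and 11.3% of all genes did not. Of these, Cidea and Plin4 in liver lay near or below the array median, where the order of pools gives no reading.

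Other genes of lipid storage were read from 4 lists, also chosen with earlier results of these data known, so their counts are descriptions. Of other droplet proteins, 25 of 28 were measured. Hsd17b11, a droplet dehydrogenase, fell by 0.94 in KO female livers, to 8.61 ± 0.22 in KO against 9.54 ± 0.12 in WT, and by 0.88 in male livers, to 8.68 ± 0.08 in KO against 9.56 ± 0.07 in WT. It also fell by 0.48 in female hearts (adjusted p = 0.0399 by limma). Nsdhl, a sterol synthesis enzyme found on droplets, rose by 1.09 in female livers and had a difference of -0.04 in males. The sex-by-genotype contrast in liver passed for 0 of the 25 genes by limma, Nsdhl included, with 1 at an unadjusted p under 0.05. No other gene of this list passed in a single-sex comparison.

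Of triglyceride breakdown genes 13 of 15 were measured. Pnpla2, which encodes the lipase that G0s2 inhibits and Plin5 binds, fell in KO female hearts to 8.46 ± 0.11, against 8.88 ± 0.04 in WT (-0.42, adjusted p = 0.0397 by limma). In male hearts it had 8.58 ± 0.10 in KO and 8.81 ± 0.08 in WT (-0.23, adjusted p = 0.597 by limma), and its average over the sexes passed at -0.33. In livers Pnpla2 did not pass, with differences of -0.29 in females and 0.20 in males. Pnpla8, a phospholipase, fell by 0.45 in livers averaged over the sexes.

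All 17 triglyceride synthesis genes of the list were measured. In hearts, averaged over the sexes, 4 of 17 fell and 1 rose, where 0.885% of all genes passed, and the median difference of the 17 was -0.04. In single sexes 3 of 17 fell in female and 1 in male hearts. Gpam, the mitochondrial acyltransferase that starts glycerolipid synthesis, fell to 7.70 ± 0.21 in KO female hearts, against 8.63 ± 0.07 in WT, and to 7.69 ± 0.14 in KO male hearts, against 8.62 ± 0.06 in WT. Dgat2, which makes triglyceride from diacylglycerol, fell to 8.31 ± 0.05 in KO female hearts, against 9.10 ± 0.17 in WT, and had 8.53 ± 0.19 in KO and 9.07 ± 0.13 in WT male hearts (-0.53, adjusted p = 0.0520 by limma). Agpat2 and Gpat3, acyltransferases of the same route, fell by 0.62 and 0.54 averaged over the sexes, and Lclat1 rose by 0.35. In livers 0 of 17 passed by limma in either sex, with 3 in females and 4 in males at an unadjusted p under 0.05. The liver minus heart KO effect passed in females for Gpam (1.02), Agpat2 (0.82) and Dgat2 (0.79), and in males for Dgat2 (0.66).

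Of genes for triglyceride secretion and its handling in blood, 15 of 16 were measured. Apoa4, an apolipoprotein, rose to 12.63 ± 0.11 in KO female livers, against 11.86 ± 0.04 in WT, and to 12.33 ± 0.06 in KO male livers, against 11.35 ± 0.26 in WT. Angptl4, an inhibitor of lipoprotein lipase, had 6.49 ± 0.52 in KO and 8.05 ± 0.81 in WT female livers, a difference of -1.56 that did not pass (adjusted p = 0.0782 by limma). In male livers it had 6.76 ± 0.27 in KO and 7.26 ± 0.42 in WT. Female hearts had 4.77 ± 0.33 in KO and 4.46 ± 0.29 in WT. The liver minus heart KO effect in females passed as lower for 1 of the 15, Angptl4, where 0.698% of all genes passed. Gpihbp1, which holds lipoprotein lipase on capillaries, fell by 0.50 in livers averaged over the sexes. In hearts 0 of 15 passed by limma, with 0 at an unadjusted p under 0.05 in females and 0 in males.

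**Figure D4:**
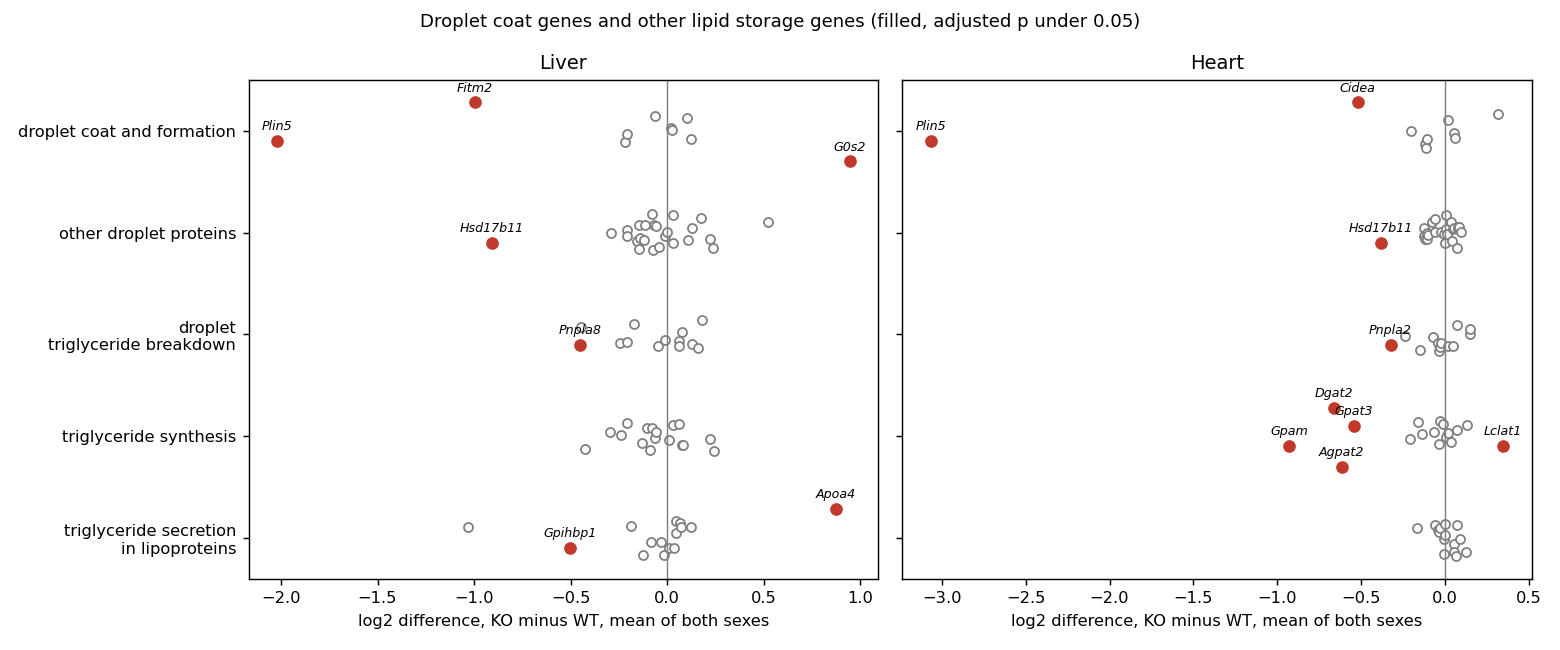
KO minus WT log2 difference averaged over the sexes (horizontal axis) of the droplet coat genes and the 4 other lists in liver and heart; each point is a gene, and filled, named points passed at an adjusted p under 0.05. In hearts the 4 synthesis genes that passed as lower include Gpam at -0.93, and Plin5 lies farthest left in both tissues.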

How the data were processed

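RNA from liver and heart pools was hybridised to Affymetrix mouse arrays. The deposited values are log2 intensities made by the authors with RMA, per the submitters' processing notes; version and genome build are not given in the sources used here. A supplied probe table named 34945 of 45101 probe sets with a single gene, 932 with several and 9160 with none. Each of 18193 genes was read from 1 probe set, the brightest on average across the 24 arrays among those naming that gene alone, with no filter on dim genes. Tests used limma 3.58.1 under R 4.3.3 (eBayes after lmFit, two-sided, Benjamini-Hochberg adjustment over all genes, threshold 0.05), with 12 arrays of a tissue in a fit, or all 24 for tissue by genotype, in 14 comparisons. The 11 member probe sets were also tested among all 45037 without the 64 controls. The members and the 13 gene lists were chosen with earlier results of these data known. Named genes were all members and up to 4 genes of each list called in KO against WT. The 5 genes most like Plin5 in each tissue were also named, passing over clone names. Lclat1 and Angptl4 fall outside these rules and were chosen after their values were seen. Cideb is read by an _s_at probe set. Replicates are pools, and nothing in the labels ties a liver pool to a heart pool of the same number. With 12 mice per sex and genotype in 3 pools of 4, both tissues may come from the same mice. In deviations from group means, 1 of 12 same-number pairs correlated above 0.1. For 4 of 12 liver pools the heart pool of the same number had the highest correlation. With 3 pools per group these correlations cannot settle pairing, and the main tests did not use the numbers for it. Alternatives covered the arrays in the fit, variance model, weights, normalization, filter, probe set choice, block, each pool left out and heart pools 4 and 10 left out together. The tests were checked on simulated data, drawn as independent normal values with the same spread in all groups for a gene. That check does not cover pools that stand apart from their group, such as liver pool 12. The number of arrays limits the precision.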

Additional observations from a re-analysis of the deposited data

Results flagged for a closer look

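The KO effect on Fitm2 differed between tissues in females by the tissue-by-genotype test. Fitm2 was 1.16 lower in KO female livers and 0.15 lower in KO female hearts on the log2 scale, and the liver minus heart effect was -1.01 (adjusted p = 0.0121 by limma over all genes). With only the compared arrays in the fit the adjusted p was 0.0784 by limma. KO pools lay below WT pools in 3 of 3 liver pools. In males the same effect was -0.76 with adjusted p = 0.136 by limma, and whether it differed between the sexes was not tested.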

How the results depend on the processing

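No member gene followed through the alternatives changed direction in any of them. Plin5 passed in hearts in 23 of 23 alternatives in each sex, with differences of -3.11 to -2.96 in females and -3.19 to -3.01 in males, and the liver averages of Plin5 and Fitm2 passed in 22 of 22. Counts of coat genes that passed moved in some alternatives. With only the compared arrays in the fit there were 0 in female liver (2 as reported), 2 in male liver (1 as reported), 0 for tissue by genotype in females (1 as reported) and 1 in males (0 as reported). A fit of all 24 arrays gave 3 in male liver, 2 in female heart (1 as reported) and 5 of the member probe sets in KO against WT (3 as reported). Array weights gave 2 in male liver and 2 and 1 for tissue by genotype in females and males. Quantile normalization and the restriction to genes above the median level gave 2 each in male liver. Median centring and the removal of heart pools 4 and 10 gave 1 each for the heart average (2 as reported). With single pools left out, the counts ran from 1 to 2 in female liver, 0 to 2 in male liver, 2 to 3 for the liver average, 1 to 2 in female heart, 1 to 1 in male heart, 1 to 2 for the heart average, 1 to 2 and 0 to 1 for tissue by genotype in females and males, and 3 to 4 for member probe sets, and were 0 between the sexes and for sex by genotype. The limma calls that are least steady are Fitm2 in male liver, which passed in 8 of 22 alternatives with adjusted p of 0.00153 to 0.285, G0s2 averaged in liver, 12 of 22 with adjusted p of 0.00123 to 0.112, and Cidea averaged in heart, 12 of 23 with adjusted p of 0.00284 to 0.115. In liver Plin5 passed in 19 of 22 for females and 15 of 22 for males; with the compared arrays alone its female adjusted p was 0.279 by limma, and that of Fitm2, which passed in 21 of 22, was 0.0803. Plin2 averaged in liver passed with array weights (adjusted p = 0.0452 by limma). With pool number as a replicate block, Fitm2 tissue by genotype in females kept its value of -1.01 with adjusted p = 0.0205 by limma. The counts were then 1 and 0. Whether equal numbers stand for the same mice is not stated, and same-number correlations of -0.20 to 0.10 cannot settle it. Over all genes, female liver had 148 calls as reported, 55 with the compared arrays alone and 267 with all 24 arrays. The cause of these shifts was not tested. Values near the array median limit Cidea, Cidec and Plin4 in liver and Cidec in heart.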
